A study of Mus musculus with 3 samples.

Results

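The genes described here are 8 that encode secreted proteins of the goblet cell mucus or proteins needed to make it: Muc2, Fcgbp, Clca1, Zg16, Tff3, Agr2, Spink4 and Retnlb. They were taken as a list of names, without a threshold on their values, and all 8 are among the 13891 genes of the deposited table. The cells came from the small intestine of male mice of the outbred ICR strain, in 3 groups, and their RNA was counted by droplet sequencing of single cells with 3′ chemistry. AOS 0 mice received vehicle (ddH2O) by gavage for 2 weeks and no busulfan, B + A 0 mice a single injection of busulfan at 40 mg/kg and the same vehicle, and B + A 10 mice busulfan at 40 mg/kg and alginate oligosaccharides (AOS) at 10 mg/kg by gavage for 2 weeks. The mice were 3 weeks old at the injection, and the drug, used against leukaemia, alkylates DNA. Sets of 3 values below keep this order of the groups, with AOS 0 as the first. The cells of 6 mice were combined into 1 library per group, so that differences between groups have no replicate check and no test was made. Intervals given with levels and ratios are 95% intervals of the counts. Such an interval holds the error of counting alone, and the spread between animals or runs is not in it.

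Goblet cells are the mucus-secreting cells of the intestinal epithelium. They arise near the base of the crypt, move up onto the villus as they mature and are shed at its tip, filling on the way with granules of mucin. Muc2 is the gel-forming mucin from which the mucus is built, and it is folded and cross-linked in the endoplasmic reticulum and decorated with sugars in the Golgi before release. Fcgbp, Clca1 and Zg16 are secreted with it and are found in the mucus, Tff3 is a small trefoil peptide packed beside it, and Agr2 is a disulfide isomerase of the endoplasmic reticulum needed for its production. Spink4 is a small secreted protein with a Kazal-type protease inhibitor domain and Retnlb (resistin-like molecule beta) is a secreted antibacterial protein. Paneth cells, the other granular secretory cells of the crypt, share their progenitors with goblet cells.

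The 8 genes lie apart on 6 chromosomes, and their coordinates (GRCm38, GENCODE) are for the whole gene. Muc2 is at chr7:141690340-141754693, Fcgbp at chr7:28071236-28120862 and Zg16 at chr7:127050156-127087328. Clca1 is at chr3:145003817-145032776, Tff3 at chr17:31125306-31129646 and Agr2 at chr12:35992907-36004087. Spink4 is at chr4:40920052-40931395 and Retnlb at chr16:48816856-48818892. All are protein-coding genes, with Zg16, Clca1 and Tff3 on the minus strand and the rest on the plus strand.

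Promoter sequence was taken from RefSeq (GRCm38.p6), which matched 3 of the 8 genes in the table used here. All 3 are shown: Muc2 and Fcgbp were highest in villus goblet cells, and Agr2 was not. Each run is the 250 bases before the RefSeq start, plus strand, 5′ to 3′, at chr7:141690090-141690339 for Muc2, chr7:28070986-28071235 for Fcgbp and chr12:35992675-35992924 for Agr2. The Agr2 run ends just inside the gene as GENCODE draws it. Capitals mark matches to the motifs named after the sequences.
Muc2: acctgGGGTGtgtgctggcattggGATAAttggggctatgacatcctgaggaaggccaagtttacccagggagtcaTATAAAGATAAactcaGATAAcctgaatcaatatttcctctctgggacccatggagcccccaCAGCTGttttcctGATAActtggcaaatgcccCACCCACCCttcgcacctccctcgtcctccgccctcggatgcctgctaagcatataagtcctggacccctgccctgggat
Fcgbp: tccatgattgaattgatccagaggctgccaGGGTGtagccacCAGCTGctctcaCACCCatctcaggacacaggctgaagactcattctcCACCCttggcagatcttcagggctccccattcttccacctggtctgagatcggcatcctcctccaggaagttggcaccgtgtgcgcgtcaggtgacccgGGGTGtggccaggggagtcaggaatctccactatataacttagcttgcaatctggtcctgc
Agr2: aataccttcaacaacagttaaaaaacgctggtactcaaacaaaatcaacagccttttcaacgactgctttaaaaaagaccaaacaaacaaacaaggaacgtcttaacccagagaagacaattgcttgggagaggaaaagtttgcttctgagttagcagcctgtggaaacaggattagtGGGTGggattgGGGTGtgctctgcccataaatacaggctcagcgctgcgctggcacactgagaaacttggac

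The motifs were searched on both strands in the same 250-base window of 32851 RefSeq promoters. The TATA box letters TATAAA were found in Muc2, beginning 174 bases before the RefSeq start, and are in 12.4% of the promoters. Only these exact letters were searched, so other TATA-like stretches in the windows are not marked. Whether the match acts as a TATA box was not tested. The E-box CAGCTG, the same on both strands, was found once each in Muc2 and Fcgbp and is in 13% of them. The GATA core GATAA was found 4 times in Muc2, once directly after the TATAAA without sharing a base, and is in 22.6%. The KLF core CACCC, read as GGGTG on the other strand, was found 3 times in Muc2 (a pair of them share a base), 4 times in Fcgbp and 2 times in Agr2, and is in 52%. The forkhead core TGTTTAC (3.17% of the promoters), the SPDEF core CCGGAT (4.94%) and the stress element core GACGTG (5.2%) were not among the letters of these windows. The other 5 genes were Clca1, Zg16, Tff3, Spink4 and Retnlb.

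There were 4106, 3195 and 5352 cells in the 3 libraries, with 35258551, 26044381 and 23003083 UMIs (unique molecular identifiers, 1 per captured RNA molecule). The median cell had 7371, 6407 and 3505 UMIs, so B + A 10 is the shallowest per cell. Between 17 and 34 cell barcodes were shared by any pair of libraries. In the sample labels the source field gives the B + A 0 library as AOS10 and the B + A 10 library as B+A0. The title, description and treatment fields hold 1 reading and were used, but the labels alone do not settle which field is right. Read by the source field, the library called B + A 0 here would have had no busulfan and the one called B + A 10 no AOS, so every comparison between the libraries below that uses either of them rests on this choice.

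Cells were grouped into classes by clustering without the 8 genes, and clusters were named from fixed marker genes, so a name means "like" that cell type. Along the goblet lineage 4 classes were set apart. Dividing secretory-like cells (144, 117 and 106 cells) carried goblet and cell cycle genes. Crypt goblet-like cells (158, 170 and 232) were led by Reg4 and Ccl9, villus goblet-like cells (200, 232 and 338) by Ido1, and the cells between (234, 188 and 281), here called middle goblet, by neither. Paneth-like cells numbered 85, 157 and 141. The 3 goblet stages together made up 14.4%, 18.5% and 15.9% of the cells.

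The markers were checked against these names. Reg4 was at 21.6 to 36.2 UMIs per 10000 in crypt and 1.65 to 4.38 in villus goblet cells over the libraries, and Ido1 at 6 to 8.46 in villus and at most 0.192 in the other 3 goblet lineage classes. Top2a, a cell cycle gene, was at 2.43 to 2.55 in dividing secretory and at most 0.12 in crypt goblet cells. Slc12a8, on the fixed list for the villus side, was not higher there (1.66 to 1.74, against 2.41 to 3.06 in crypt goblet cells), and Ccl6, on the list for the crypt side, was at 38.9 to 50.2 in villus and 41.8 to 48.4 in crypt goblet cells. The dividing secretory class held 24% of cells with doublet scores in the top 5%, against 0.295% of the goblet cells. The haemoglobin genes Hbb-b1 and Hba-a1 led the middle goblet cluster through B + A 0 alone, where the red blood cell markers summed to 12.1 UMIs per 10000 of the class and to 0.01 in each of the other libraries. A further 306 cells carried goblet genes in a cluster in which 60.8% were called doublets, and 61 cells carried goblet with T cell genes. Both sets were kept out of the goblet classes.

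The 8 genes together were a larger part of the transcripts at each step of the lineage. In dividing secretory cells they were 9.31%, 9.90% and 10.3% of all UMIs. In crypt goblet cells they were 18.9%, 18.7% and 19.2%, in middle goblet cells 33.3%, 31.7% and 34.3%, and in villus goblet cells 50.9%, 49.8% and 50.3%. The libraries did not overlap between neighbouring classes. Single cells did overlap: the 10th to 90th percentile over the libraries' cells was 9.79% to 28.1% in crypt, 24.5% to 41.3% in middle and 40.4% to 59.0% in villus goblet cells. Without the called doublets the dividing secretory values were 9.31%, 9.59% and 9.54%.

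**Figure D1:**
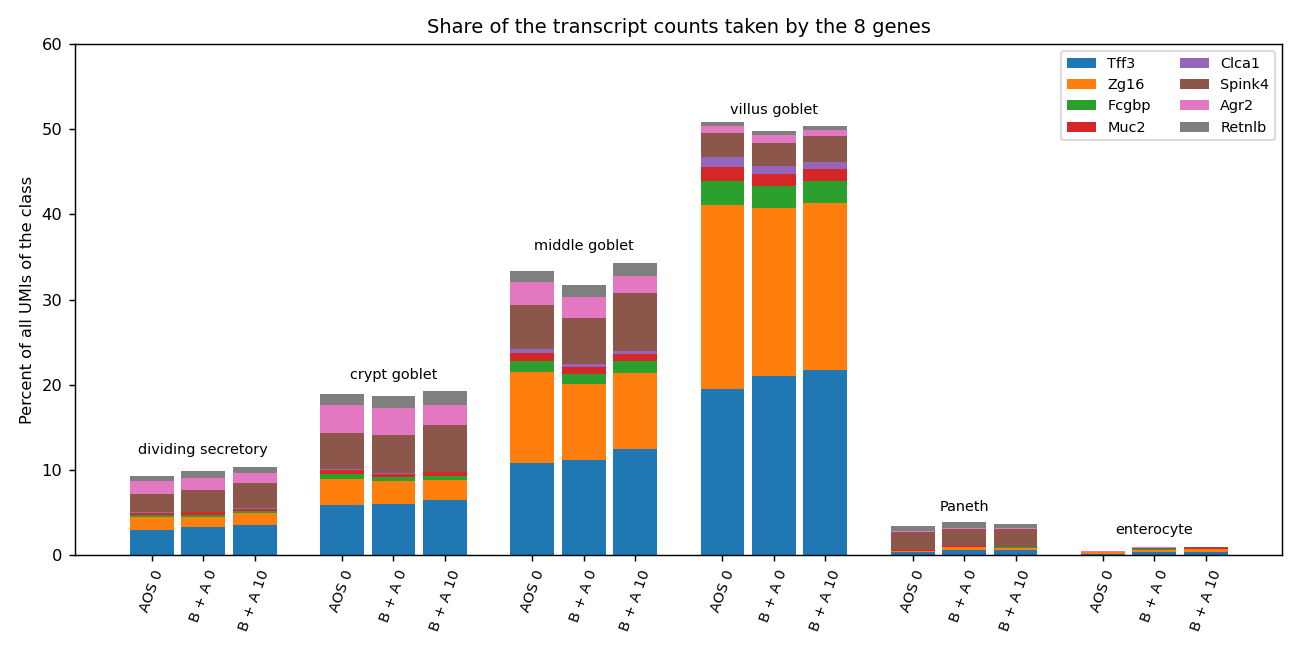
Percent of all UMIs of a class (vertical axis, from 0) taken by each of the 8 genes, as stacked bars for the 3 libraries in 6 cell classes. The bars of the 3 libraries stand at close to 10% in dividing secretory, 19% in crypt, 33% in middle and 50% in villus goblet cells, and Tff3 and Zg16 make up most of the villus bars.

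Outside the goblet lineage the 8 genes were 3.41%, 3.82% and 3.69% of the UMIs of Paneth-like cells and 0.439%, 0.942% and 0.987% of those of enterocyte-like cells (1798, 1266 and 2454 cells). A few enterocyte-like cells carry much of these sums. The median such cell had 0.213%, 0.583% and 0.522%, and the 90th percentile was 0.379%, 0.824% and 0.853%, below the sum in each library. Over all cells, the goblet stages held 72.1%, 67.6% and 71.0% of all UMIs of the 8 genes. Pooled over the libraries, villus goblet cells held 34.7%, middle goblet cells 24.4%, crypt goblet cells 11.2%, dividing secretory cells 6.39%, Paneth-like cells 5.51% and enterocyte-like cells 3.89%. Of the sets kept out of the goblet classes, the cluster rich in called doublets held 6.65% and the cells with T cell genes 1.92%. Cycling cells held 2.59%, and a small set with goblet and Paneth genes, described below, 1.41%.

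Levels below are UMIs per 10000 UMIs of a class. Since the chemistry counts transcript ends they were not scaled by length, and they are compared between cells and not between genes. Muc2, the gel-forming mucin, was higher at each step of the lineage. Its level in dividing secretory cells was 26.7, 29.1 and 23.2. In crypt goblet cells it was 51.5 (50.2 to 52.7), 44.0 (42.8 to 45.3) and 42.8 (41.4 to 44.1), and in middle goblet cells 102.3, 85.5 and 84.9. Villus goblet cells had 167.5 (165.4 to 169.8), 145 (142.9 to 147.0) and 146.1 (143.9 to 148.3). The libraries kept these classes apart without overlap, and AOS 0 was the highest library in each of the 3 goblet stages. In the median villus goblet cell of AOS 0 Muc2 was at 165 (10th to 90th percentile 94.2 to 272). Paneth-like cells had 5.89, 6.56 and 5.77, and in enterocyte-like cells Muc2 was at 2.01, 3.64 and 3.81.

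Fcgbp encodes a large protein of von Willebrand D domains that is bound to Muc2 in mucus. Its level was 26.1, 27.8 and 29.6 in dividing secretory cells. It was 49.2 (48.0 to 50.4), 47.8 (46.6 to 49.1) and 48.0 (46.6 to 49.4) in crypt goblet cells, where the 3 intervals overlap. Middle goblet cells had 130.6, 118.1 and 138.1 and villus goblet cells 273.0 (270.2 to 275.8), 253.8 (251.1 to 256.5) and 257.5 (254.5 to 260.4). The 4 classes were again in the order of the lineage in each library. Paneth-like cells had 2.06, 7.28 and 5.92, and those values lie within the range of enterocyte-like cells (2.37, 5.79 and 6.11) apart from B + A 0 above and AOS 0 below it.

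Clca1, a secreted metalloprotease that acts in the mucus, had the largest stage difference of the 8. It was at 4.65, 5.41 and 5.15 in dividing secretory cells and at 10.4 (9.79 to 10.9), 7.53 (7.03 to 8.05) and 7.60 (7.05 to 8.19) in crypt goblet cells. In middle goblet cells it was at 37.8, 29.3 and 30.4 and in villus goblet cells at 118.5 (116.7 to 120.4), 92.96 (91.3 to 94.6) and 87.2 (85.5 to 88.9). AOS 0 was highest in the 3 goblet stages, while in dividing secretory cells it was the lowest. The median crypt goblet cell of B + A 0 had a level of 3.82 and the 10th percentile was 0. Thinned to 1000 UMIs, Clca1 had a UMI in 44.9%, 41.8% and 41.4% of crypt goblet cells, in 100%, 99.1% and 99.4% of villus goblet cells, and in 4.89%, 11.3% and 9.17% of enterocyte-like cells.

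Zg16, a lectin-like protein that binds the wall of Gram-positive bacteria, had the second largest stage difference. It was at 146.4, 111.7 and 137.7 in dividing secretory cells and at 308.7 (305.6 to 311.8), 261.4 (258.4 to 264.4) and 237.6 (234.5 to 240.8) in crypt goblet cells. Middle goblet cells had 1068, 893 and 896, and villus goblet cells 2161 (2153 to 2169), 1977 (1969 to 1984) and 1959 (1951 to 1967). Cells of the crypt class differed widely among themselves: in AOS 0 the 10th percentile was 8.56, the median 227 and the 90th percentile 722. In villus goblet cells of AOS 0 the same percentiles were 1524, 2178 and 2760, so the spread between cells was narrower in proportion there.

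Tff3 was present at a high level from the dividing cells on. It was at 299.5, 332.5 and 353.8 in dividing secretory cells and at 588.2 (583.9 to 592.4), 603.2 (598.6 to 607.7) and 644.2 (639.0 to 649.4) in crypt goblet cells. Middle goblet cells had 1076, 1116 and 1241, and villus goblet cells 1952 (1944 to 1959), 2098 (2090 to 2106) and 2169 (2161 to 2178). In all 4 classes AOS 0 was the lowest library and B + A 10 the highest. Every cell of the crypt, middle and villus stages had a Tff3 UMI after thinning to 1000 UMIs, and 54.1%, 84.6% and 83.2% of enterocyte-like cells did.

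Agr2 had another order of classes. It was at 163.8, 149.1 and 115.7 in dividing secretory cells, and highest in crypt goblet cells with 327.5 (324.4 to 330.7), 316.9 (313.7 to 320.2) and 237.9 (234.7 to 241.0). Middle goblet cells had 261.4, 251.4 and 190.4, and villus goblet cells 91.6 (90 to 93.3), 92.8 (91.2 to 94.4) and 76.6 (74.98 to 78.2), below the dividing cells in each library. Over the libraries the crypt and middle ranges overlap, but within each library the crypt value was higher. The order of villus and dividing cells depends on the scale. Per 10000 UMIs that were not from the 8 genes, villus goblet cells had 186.5, 184.6 and 154.2. Dividing cells had 180.6, 165.5 and 129.1 on that scale, lower in each library. B + A 10 was the lowest library in all 4 classes. In the median cell of AOS 0 Agr2 was at 322 in crypt and 77.0 in villus goblet cells.

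Spink4 peaked in middle goblet cells. Dividing secretory cells had 207.9, 254.1 and 298.9 and crypt goblet cells 428.2 (424.6 to 431.9), 449.1 (445.2 to 453.0) and 542.4 (537.7 to 547.2). Middle goblet cells had 523.9, 539.4 and 692.3, and villus goblet cells 278.4 (275.6 to 281.3), 266.4 (263.7 to 269.1) and 297.8 (294.6 to 300.9). The ranges of dividing secretory and villus goblet cells overlap over the libraries. Paneth-like cells had 206.7, 195.9 and 213.4, of which the B + A 10 value lies within the range of dividing secretory cells.

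Retnlb was at 55.98, 79.95 and 69.1 in dividing secretory cells, and at 128.3 (126.4 to 130.3), 137.3 (135.2 to 139.5) and 162.2 (159.6 to 164.9) in crypt goblet cells. Middle goblet cells had 130.7, 142.6 and 155.6, which cannot be set apart from the crypt values over the libraries. Villus goblet cells had 45.0 (43.9 to 46.2), 49.8 (48.6 to 51.0) and 39.5 (38.4 to 40.7), and Paneth-like cells 62.7, 62.7 and 47.3. Paneth-like cells overlap in range with villus goblet and with dividing secretory cells. The level differed widely between cells of 1 class: in crypt goblet cells of B + A 10 the 10th percentile was 18.4, the median 94.8 and the 90th percentile 343.

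**Figure D2:**
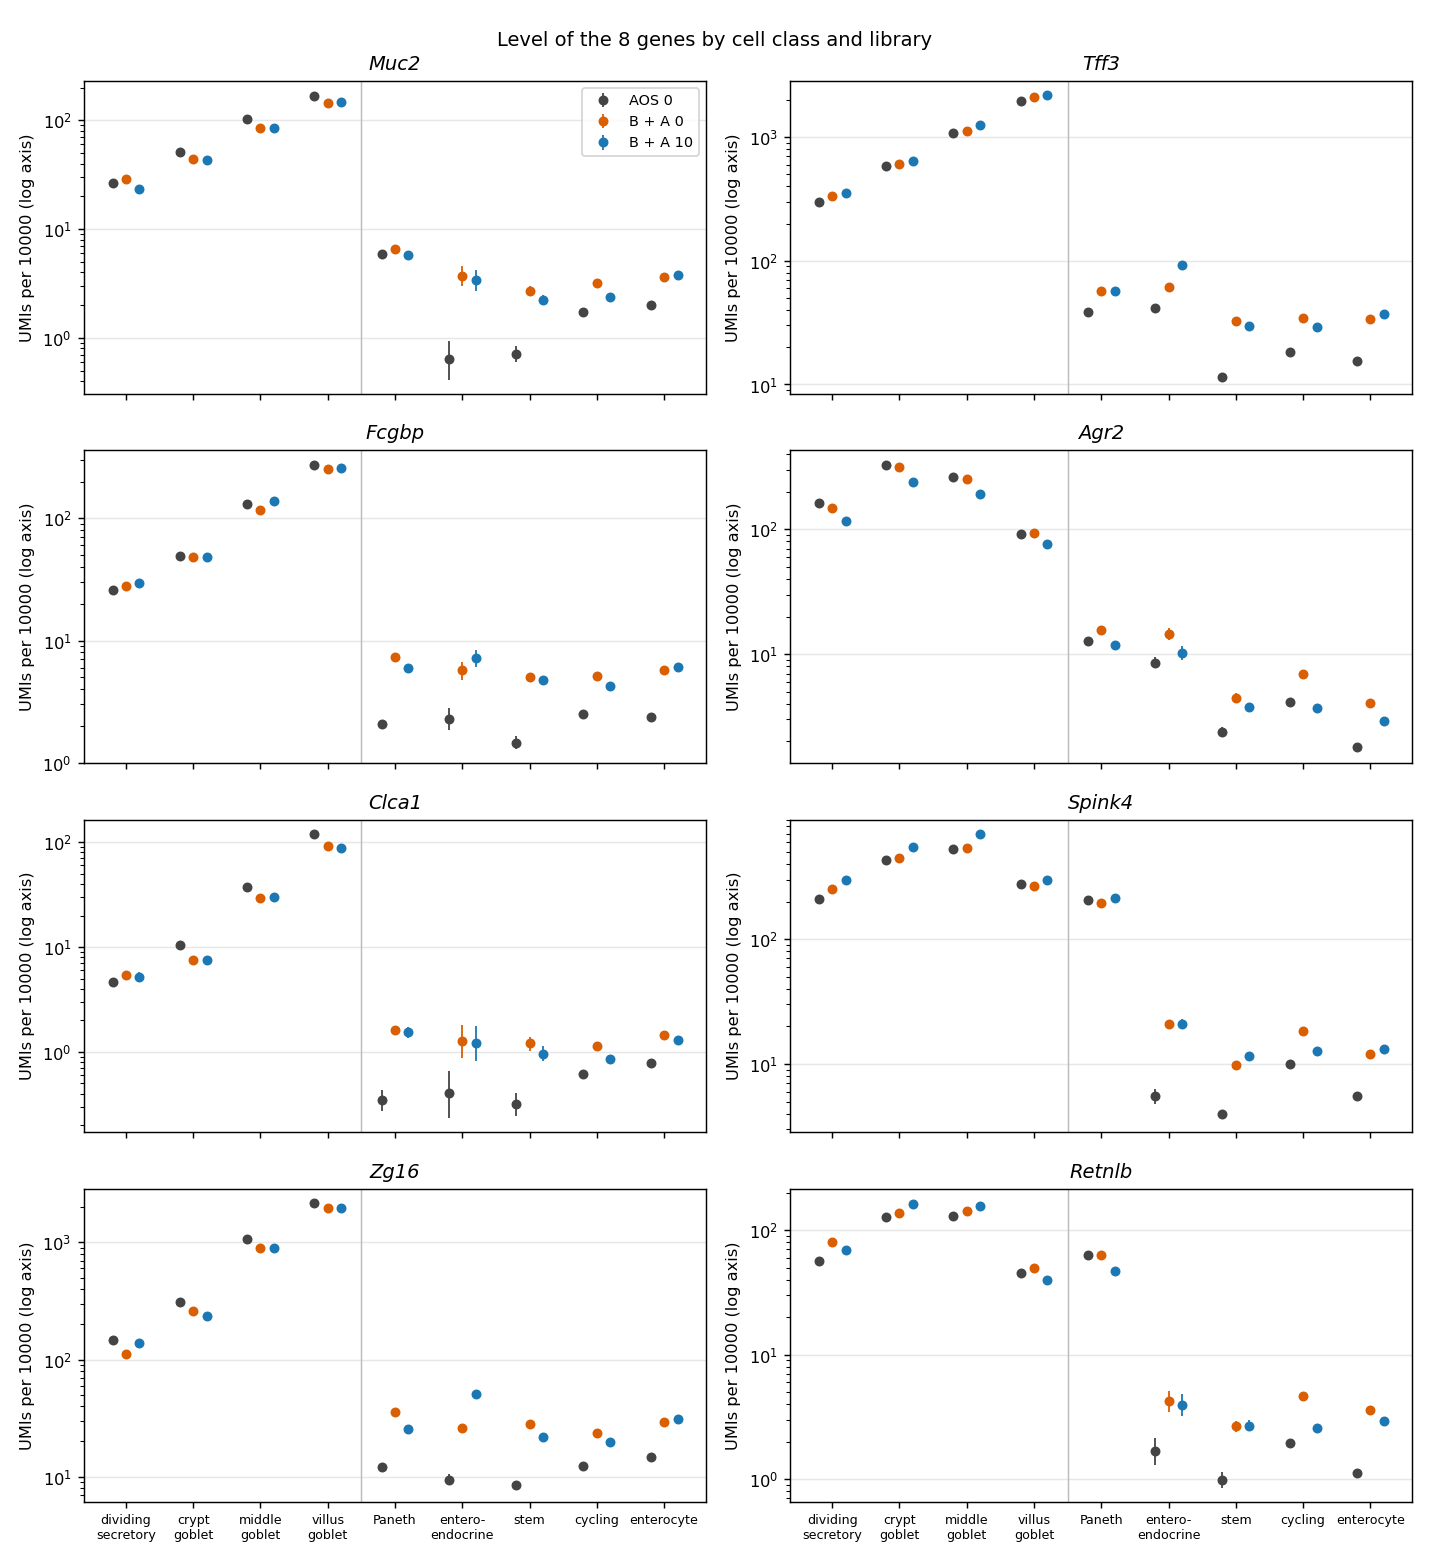
Level of each gene in UMIs per 10000 UMIs of the class (log axis) in 9 cell classes, with 1 point per library and 95% counting intervals as bars, most of them smaller than the points. Muc2, Fcgbp, Clca1, Zg16 and Tff3 are higher at each step from dividing secretory to villus goblet cells, while Agr2, Spink4 and Retnlb are lower in villus than in crypt goblet cells, and Spink4 and Retnlb are far higher in Paneth-like than in enterocyte-like cells.

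Villus and crypt goblet cells were then set against each other within each library. The members were left out of the clustering, but the classes come from the same cells, so the differences are given without a test. On the log2 scale villus over crypt was 3.52, 3.63 and 3.52 for Clca1. It was 2.81, 2.92 and 3.04 for Zg16 and 2.47, 2.41 and 2.42 for Fcgbp. Each of these was higher in villus cells by a factor that the libraries shared closely. Tff3 had 1.73, 1.80 and 1.75 and Muc2 1.70, 1.72 and 1.77, so that these 5 genes were higher in villus goblet cells in each library, as were 18.2% of the 4770 genes compared. The other 3 genes were higher in crypt goblet cells in each library, as were 62.4% of all genes. Spink4 had -0.62, -0.75 and -0.87, Retnlb -1.51, -1.46 and -2.04, and Agr2 -1.84, -1.77 and -1.64. The median of the 8 genes was 1.74 and that of all genes -0.61, and 12% of all genes were at least 1.5-fold higher and 51% at least 1.5-fold lower in villus goblet cells.

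Because the 8 genes are so large a part of the UMIs, a level per 10000 is lower for every other gene where they are higher, and 2 further scales were used. Per 10000 UMIs that were not from the 8 genes, pooled villus over crypt on the log2 scale was 4.24 for Clca1, 3.61 for Zg16, 3.14 for Fcgbp, 2.47 for Tff3 and 2.43 for Muc2. It was -1.07 for Agr2 and -0.94 for Retnlb. For Spink4 it was -0.03, with 0.10, -0.06 and -0.16 in the single libraries, so the direction of Spink4 depends on the scale. As UMIs per cell, villus goblet cells had 9.85 times the Clca1 of crypt goblet cells, 6.33 times the Zg16, 4.59 times the Fcgbp, 2.88 times the Tff3 and 2.79 times the Muc2. On that scale the ratio was 0.508 for Spink4, 0.271 for Retnlb and 0.248 for Agr2. The median depth was 5688 UMIs in crypt and 4566 in villus goblet cells.

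**Figure D3:**
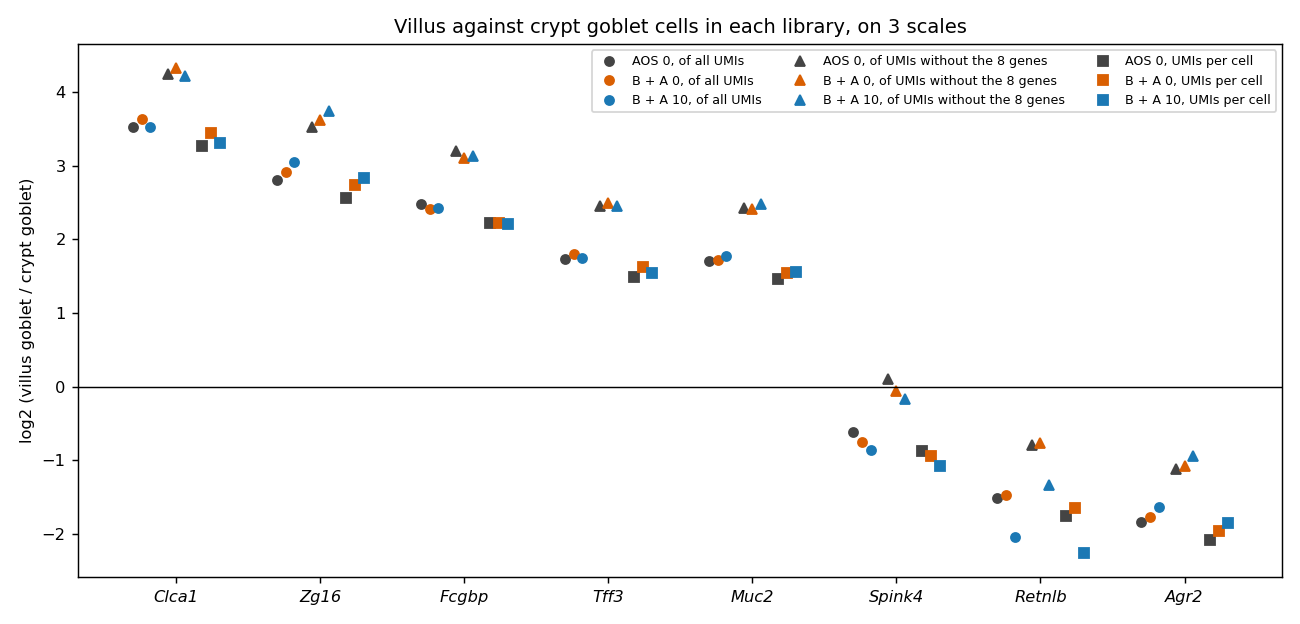
Log2 of the villus over the crypt goblet level for the 8 genes, in each library (colours) and on 3 scales: per all UMIs (circles), per UMIs without the 8 genes (triangles) and UMIs per cell (squares). Clca1, Zg16, Fcgbp, Tff3 and Muc2 lie above 0 on each scale, Retnlb and Agr2 below 0, and Spink4 lies around 0 when the 8 genes are left out of the total.

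All 8 genes had a higher level per 10000 in crypt goblet than in dividing secretory cells of each library. Pooled crypt over dividing was between 0.79 (Muc2 and Clca1) and 1.09 (Retnlb) on the log2 scale. The single libraries were less alike, with Clca1 at 1.15, 0.48 and 0.56 and Zg16 at 1.08, 1.23 and 0.79. As UMIs per cell the pooled ratio was only 1.01 to 1.25, and that of Clca1 was 1.43, 0.88 and 0.92 in the libraries. Dividing cells were deeper (median 9442 against 5688 UMIs). Their number of called doublets moves with this difference, and its part was not tested. From crypt to middle goblet cells the genes separated. The level per 10000 was 3.87 times as high for Clca1, 3.56 times for Zg16, 2.66 times for Fcgbp, 2 times for Muc2 and 1.86 times for Tff3, but 1.23 times for Spink4, 1.00 times for Retnlb and 0.80 times for Agr2. Per 10000 UMIs that were not from the 8 genes, the pooled crypt and middle levels were 368.7 and 358.3 for Agr2. For Retnlb they were 173.7 and 210.5, so these steps depend on the scale.

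Spink4 and Retnlb stood furthest above the enterocyte-like level in Paneth-like cells. Relative to enterocyte-like cells of the same library, Spink4 was higher by 5.22, 4.03 and 4.03 on the log2 scale and Retnlb by 5.82, 4.12 and 4.01. Agr2 was higher by 2.81, 1.92 and 2.03, Muc2 by 1.55, 0.85 and 0.60 and Tff3 by 1.33, 0.74 and 0.62. For Clca1, Fcgbp and Zg16 the sign differed between libraries, with values from -1.16 to 0.33. As UMIs per cell, Paneth-like cells, with a median of 19685 UMIs, had 1.61 times the Spink4 of crypt goblet cells (1.63, 1.75 and 1.34 in the libraries). For Retnlb the pooled ratio was 1.56, but it was 1.65, 1.83 and 0.99 in the libraries, so B + A 10 showed no excess. These ratios come from sums over Paneth-like cells that differed widely. The median such cell had Spink4 at 132, 138 and 123 per 10000, with 90th percentiles of 499, 481 and 530. Retnlb medians were 34.1, 36.8 and 25.0, with 90th percentiles of 205, 154 and 127. The summed level of 29 Paneth markers was 6935 to 7501 per 10000 in Paneth-like cells, 404 to 519 in crypt goblet and 338 to 437 in enterocyte-like cells. That of 40 goblet markers was 76.5 to 142.5 in Paneth-like cells and 20.2 to 24 in enterocyte-like cells, and its part in the Spink4 and Retnlb of Paneth-like cells was not tested.

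A small set of 16, 14 and 22 cells clustered with goblet cells at the main resolution and with Paneth cells at a finer one. Their called doublets were 0, 1 and 0 cells. In these cells Spink4 was at 712, 706 and 816 and Retnlb at 219.9, 261.0 and 298.9, above each class described so far in each library. Against crypt goblet cells they were higher by 0.66 and 0.88 on the log2 scale when pooled. The other members were not: Muc2 was at 51.9, 35.6 and 41.0, close to crypt goblet cells, and Zg16 at 68.2, 83.2 and 82.0, well below them. Agr2 was at 181.3, 105.2 and 114.0.

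The ratio of a pair of members within the same cells does not depend on the total. Spink4 counts over Zg16 counts were 1.39, 1.72 and 2.28 in crypt goblet cells, 0.490, 0.604 and 0.773 in middle and 0.129, 0.135 and 0.152 in villus goblet cells. In Paneth-like cells they were 17.1, 5.47 and 8.36 and in the cells with both kinds of genes 10.4, 8.49 and 9.96. In enterocyte-like cells they were 0.376, 0.407 and 0.421, between those of crypt and villus goblet cells. Over all goblet cells the same ratio was 0.357, 0.374 and 0.462. Retnlb over Zg16 ran the same way, at 0.517 in crypt, 0.145 in middle, 0.022 in villus goblet, 2.19 in Paneth-like and 0.098 in enterocyte-like cells when pooled. Agr2 over Zg16 was 1.10, 0.247 and 0.043 along the 3 stages and 0.516 in Paneth-like cells.

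**Figure D4:**
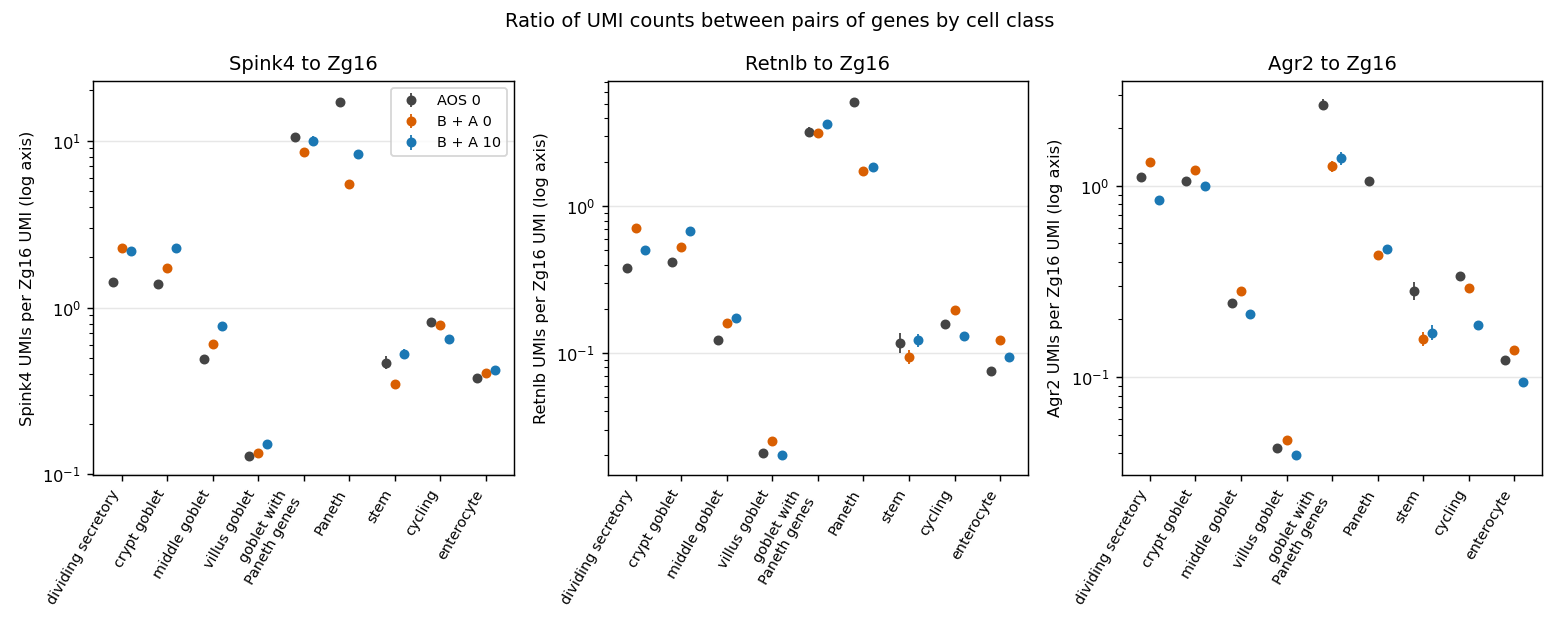
Counts of Spink4, Retnlb and Agr2 per count of Zg16 (log axes) in 9 cell classes, with 1 point per library and 95% counting intervals. All 3 ratios are lower in villus than in crypt goblet cells in each library, and those of Spink4 and Retnlb are highest in Paneth-like cells and in the cells with goblet and Paneth genes.

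B + A 0 was compared with AOS 0 to ask how the cells of busulfan-treated mice differed from those of mice without it. In the 3 goblet stages combined, no member differed by 1.5-fold, against 4.78% of 5144 genes with at least 100 UMIs over both libraries. Tff3 was higher by 0.13 (0.13 to 0.14) on the log2 scale and Retnlb by 0.04 (0.02 to 0.06). The log2 ratio was -0.24 for Clca1, -0.18 for Muc2, -0.11 for Zg16, -0.10 for Agr2 and -0.04 for both Fcgbp and Spink4. That of the sum of the 8 was -0.01. The median over members was -0.07 and that over all genes -0.02. The mix of stages also differed between these libraries. Crypt, middle and villus goblet cells numbered 158, 234 and 200 in AOS 0 and 170, 188 and 232 in B + A 0. A pooled ratio holds this mix as well as the levels within stages. It can therefore lie outside the values of the single stages given next, as it does for Clca1.

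By stage, again 0 of 8 members were past 1.5-fold in the dividing, crypt, middle or villus class, where 5.11%, 4.27%, 5.44% and 9.17% of genes were. Muc2 had a log2 ratio of -0.22 in crypt, -0.26 in middle and -0.21 in villus goblet cells, and Clca1 of -0.46, -0.37 and -0.35. Zg16 had -0.39 in dividing, -0.24 in crypt, -0.26 in middle and -0.13 in villus cells. So these 3 were lower in B + A 0 in each goblet stage, while Muc2 and Clca1 were higher in dividing secretory cells (0.12 and 0.22). Retnlb was higher in each class, most in dividing secretory cells (0.51), and so was Tff3 (0.04 to 0.15). Agr2 was lower in B + A 0 in crypt (327.5 and 316.9 per 10000) and middle goblet cells (261.4 and 251.4). In villus goblet cells it was not (91.6 and 92.8).

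B + A 10 was compared with B + A 0 to ask what differed where AOS was given after busulfan. Both comparisons share the B + A 0 library, so a value that is high or low in it moves both in opposite directions. In the goblet stages together no member was past 1.5-fold, against 3.23% of 4642 genes. Agr2 had a log2 ratio of -0.39 (-0.41 to -0.37) and Spink4 of 0.30 (0.29 to 0.31). The other 6 were between -0.05 (Clca1) and 0.11 (Retnlb), and the interval of Muc2 reached from -0.02 to 0.03. The median over members was 0.04 and that over all genes -0.03.

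Agr2 was lower in B + A 10 in the goblet lineage, Paneth-like and enterocyte-like classes, with -0.37 in dividing secretory, -0.41 in crypt, -0.40 in middle and -0.28 in villus goblet cells, -0.38 in Paneth-like and -0.49 in enterocyte-like cells. In the small set with goblet and Paneth genes it was higher in B + A 10 (105.2 and 114.0 per 10000), and in T cell-like cells, at a low level, likewise (3.97 and 4.55). Spink4 was higher in the same 4 lineage classes, by 0.23, 0.27, 0.36 and 0.16, and by 0.12 in Paneth-like cells. Retnlb had no single direction: it was at 0.24 in crypt and 0.13 in middle but at -0.33 in villus goblet and -0.21 in dividing secretory cells. Muc2 was at -0.32 in dividing secretory cells and between -0.04 and 0.01 in the goblet stages. Members past 1.5-fold were 0 of 8 in each of the 4 classes, where 3.7%, 3.42%, 4.13% and 5.39% of genes were. Between B + A 10 and AOS 0, goblet stages together, it was also 0 of 8, against 9.48% of genes.

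**Figure D5:**
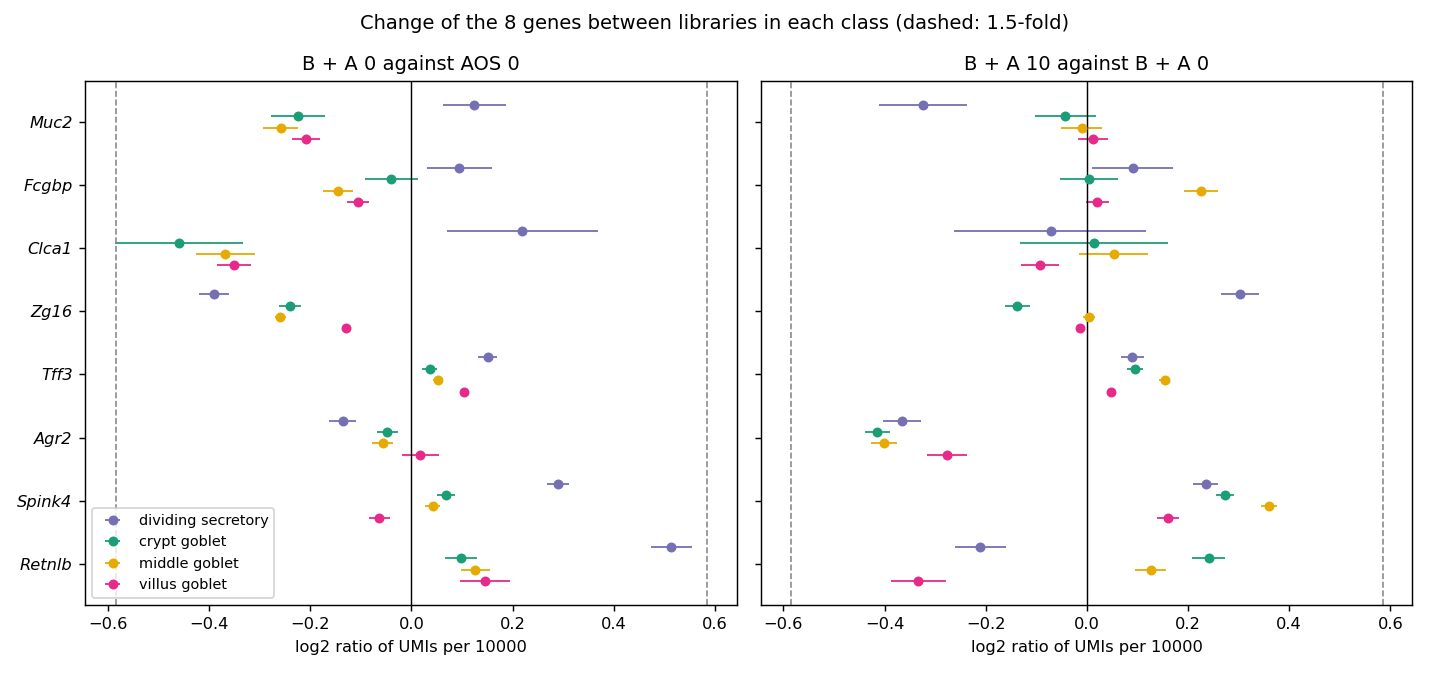
Log2 ratio of the level per 10000 between libraries for each gene (rows) in the 4 goblet lineage classes (colours), with 95% counting intervals, for B + A 0 over AOS 0 (left) and B + A 10 over B + A 0 (right). All points lie between the dashed lines at 1.5-fold, with the Agr2 points left of 0 and the Spink4 points right of 0 in the right panel.

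In classes where the members are rare the libraries differed more, and how much of this is RNA free in the droplets was not tested. In enterocyte-like cells all 8 members were at least 1.5-fold higher in B + A 0 than in AOS 0, as were 1.94% of genes (3.85% in either direction), with a median log2 ratio of 1.13. In stem-like and cycling cells all 8 were as well, as were 2.12% of genes (4% in either direction). Zg16 had a UMI in 53.4%, 84.6% and 81.8% of enterocyte-like cells thinned to 1000 UMIs, and its median level in single cells was 7.09, 18.7 and 16.4. Spink4 counts over Zg16 counts in these cells are given above for the 3 libraries. From B + A 0 to B + A 10 no member was past 1.5-fold in enterocyte-like cells (2.62% of genes), and in stem-like and cycling cells Agr2 and Retnlb were lower by that much, with log2 ratios of -0.80 and -0.71, as were 1% of genes (2.1% in either direction). These 2 ratios come from summed levels of 6.43 and 3.70 for Agr2 and 4.23 and 2.60 for Retnlb. The median stem-like or cycling cell differed less, with Agr2 at 3.02 and 2.03 and Retnlb at 2.38 and 1.81.

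In Paneth-like cells 3 of 8 members were at least 1.5-fold higher in B + A 0 than in AOS 0, close to the 28% of 2286 genes that were so (28.7% in either direction). Clca1 had a log2 ratio of 2.21, Fcgbp of 1.82 and Zg16 of 1.57, all from levels in AOS 0 far below those of goblet cells. In AOS 0, Fcgbp was at 2.06 in Paneth-like and 2.37 in enterocyte-like cells. Clca1 was at 0.349 and 0.778, the first from 79 UMIs. The other 5 did not differ by 1.5-fold: Tff3 had 0.55, Agr2 0.28, Muc2 0.16, Retnlb 0.00 and Spink4 -0.08. The median over members was 0.42 and that over all genes 0.35. From B + A 0 to B + A 10 it was 0 of 8 (11% of genes), with Retnlb at -0.41, and both medians were -0.24.

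Enteroendocrine-like, tuft-like and T cell-like cells held little of the members. Enteroendocrine-like cells (158) had Agr2 at 8.58, 14.5 and 10.3 and Tff3 at 41.4, 61.0 and 93.0, which pooled were higher than in enterocyte-like cells by 1.96 and 1.18 on the log2 scale, while the other 6 were between -0.40 and 0.56. A few cells carry these levels: the median cell over the libraries had 3.21 for Agr2 and 26.2 for Tff3, and the 90th percentile was 46.5 and 208. Tuft-like cells numbered 29 over the libraries, too few for a firm level: Muc2 there rests on counts that give 0.382 in AOS 0, with an interval of 0.0462 to 1.38. In T cell-like cells the median cell had no UMI of Clca1 in any library. The median for Muc2 was 0, 2.22 and 0 and that for Fcgbp 0, 3.33 and 2.77. In AOS 0 the summed levels of Muc2 (5.75) and Fcgbp (9.60) lay above the 90th percentiles (3.27 and 3.12), so a few cells carry them. In the other libraries they lay below. Called doublets were 11.5%, 5.17% and 1.99% of the T cell-like cells, and their part was not tested.

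The genes most like each member were named by Pearson's r on log2(level + 0.1) over 30 points, 10 classes in 3 libraries, among 9296 genes with at least 300 UMIs. The points share libraries and may share free RNA, and r is a description. Among members, Fcgbp, Zg16 and Clca1 had r of 0.989 to 0.995 with one another and Spink4 and Retnlb had 0.991, whereas Clca1 with Retnlb had 0.693. Of the genes that are no members, Muc2 and Fcgbp were most like Ano7 (0.979 and 0.969) and Capn9 (0.973 and 0.965), followed by Rab27b for Muc2 (0.971) and Cmtm8 for Fcgbp (0.961). Zg16 was most like Rab27b (0.964), Ano7 (0.963) and Sytl2 (0.960), and Tff3 like Gcnt3 (0.982), Ano7 (0.973) and Sytl2 (0.972). Clca1 was most like Plaur (0.961), P2ry4 (0.958) and Fer1l6 (0.958). Agr2 was most like Rep15 (0.972), Klk1 (0.972) and Kdelr3 (0.970), and Spink4 and Retnlb like Ccl6 (0.983 and 0.969), Mptx1 (0.968 and 0.962) and Qsox1 (0.956 and 0.95).

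A list of 106 other goblet and mucus genes was set beside the members, of which 101 were in the table and 86 had at least 100 UMIs in goblet cells. Of these, 15 were at least 1.5-fold higher in villus and 47 in crypt goblet cells, with a median log2 ratio of -0.66. This is near the background given above of 12% and 51% of all genes and a median of -0.61, on the same scale of all UMIs. The members were 18.9% of the pooled UMIs in crypt and 50.3% in villus goblet cells. By itself this lowers the villus level of every other gene by more than 1.5-fold. A gene with an equal share of the remaining UMIs in both stages is therefore counted as higher in crypt goblet cells. The counts by role below are on this scale too. Of 26 genes for folding in the endoplasmic reticulum, the role of Agr2, 24 were higher in crypt goblet cells and 0 in villus goblet cells (median -1.41), among them Calr, a calcium-binding chaperone (-1.39), and Hspa5, the chaperone BiP (-1.51). Of 24 mucin glycosylation genes 12 were higher in crypt and 3 in villus goblet cells. Gcnt3, which branches mucin sugars, had 0.70. Of 14 genes for channels, proteases and release at the surface 8 were higher in villus and 3 in crypt goblet cells (median 0.86), Vamp8, a fusion protein of secretory granules, having 0.45 and Scin, which severs actin, 0.83. Of 12 other mucins and mucus parts 3 were higher in villus (Lypd8, which binds flagella, 1.27) and 4 in crypt goblet cells (Guca2a, guanylin, -0.97), and of 10 transcription factors 1 was higher in villus (Klf4, 1.20) and 4 in crypt goblet cells, with Foxa3 at 0.04.

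Between libraries these genes passed 1.5-fold in goblet cells about as often as all genes did (4.78% and 3.23%, as above). From AOS 0 to B + A 0, 4 of 84 were higher (Clca4b 1.09, Dmbt1 1.02, B3gnt3 0.76 and Nlrp6 0.60 on the log2 scale) and 1 was lower (Gcnt1, -1.05). Their levels were low, Dmbt1 at 0.33 and 0.67 per 10000 and the rest below 0.5. From B + A 0 to B + A 10, 0 of 82 were higher and 3 were lower (Agr3 -0.87, St6galnac4 -0.87 and Hes1 -0.65), each at no more than 0.25 per 10000.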

How the data were processed

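Droplet libraries (Chromium 3′ v2, 1 lane per group) were aligned by the authors with Cell Ranger 2.2.0 to mm10, with 5000 cells forced per library (B + A 10 holds 5352). The authors removed cells with under 200 genes and genes in under 3 cells, and deposited the natural log of 1 plus UMIs per 10000 UMIs of a cell, without their joined values. No mitochondrial gene was listed. UMI counts were recovered (100% of 24333763 values within 0.01 of a whole UMI). With 1 library per group no test was planned or made.

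The 8 genes and all lists were chosen with earlier results of these data known. The fixed rule named the 8 members, from a list of other mucus genes the 2 with most UMIs per role and every gene past 1.5-fold between libraries, and the 3 genes most like each member. Not every gene that this rule names is reported here. Libraries were joined by canonical correlation anchors (Seurat 5.3.0, R 4.3.3, Matrix 1.6.5; 20 dimensions, 2000 variable genes, 20 neighbours, resolution 0.8) without the 8 genes. Goblet lineage cells were staged by their cluster at resolution 1.5. That staging, the joining of 3 stages as goblet, the call of a goblet cluster from the share of its markers at 2-fold, and setting aside clusters over 50% doublets were chosen after the data were seen. Scrublet's threshold called 15 cells and did not work, so the top 5% of scores per library (597 cells) were taken as called doublets and kept unless stated.

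Python 3.11.15, numpy 2.4.6, scipy 1.17.1, pandas 2.3.3 and scanpy 1.11.5 were used. Counts were summed per class and library. Levels have exact Poisson and ratios exact binomial 95% intervals. Ratios use genes with at least 100 UMIs over both libraries. The ratio and the 1.5-fold call were tested on simulated summed counts. Count recovery, clustering, naming, staging and doublet calls were not. Gene coordinates come from GENCODE and promoters from RefSeq, both GRCm38.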

Additional observations from a re-analysis of the deposited data

Results flagged for a closer look

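In 9 cases a member moved in opposite directions in 2 classes between the same libraries, with counting intervals that leave out 0 on both sides. With 1 library per group the difference was not tested, and all differences are on the log2 scale. From AOS 0 to B + A 0, Paneth-like cells lay above middle goblet cells by 0.41 for Muc2 (0.16 against -0.26) and by 1.97 for Fcgbp (1.82 against -0.15). They lay above crypt goblet cells by 2.67 for Clca1 (2.21 against -0.46). Against dividing secretory cells they lay above by 1.96 for Zg16 (1.57 against -0.39) and by 0.42 for Agr2 (0.28 against -0.14). For Spink4 dividing secretory cells lay above Paneth-like cells by 0.37 (0.29 against -0.08). From B + A 0 to B + A 10, Paneth-like cells lay below middle goblet cells by 0.53 for Fcgbp (0.23 against -0.30), below dividing secretory cells by 0.79 for Zg16 (0.30 against -0.49) and below crypt goblet cells by 0.65 for Retnlb (0.24 against -0.41). The median over all genes in Paneth-like cells was 0.35 from AOS 0 to B + A 0 and -0.24 from B + A 0 to B + A 10. Against it the Paneth-like values of Muc2 (0.16) and Agr2 (0.28) lie below the typical gene, so their opposite directions depend on the scaling. In enterocyte-like cells the same ratio of B + A 0 to AOS 0 was 1.29 for Fcgbp, 0.88 for Clca1 and 1.00 for Zg16, and its part in the Paneth-like values was not tested.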

How the results depend on the processing

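No paired analysis was possible because each group is 1 library with no replicate. Members past 1.5-fold in goblet cells stayed 0 of 8 in both comparisons under each alternative run: libraries not joined, resolutions 0.4 and 1.5, called doublets out, cells under 500 genes out, cells classed one by one from markers, means over cells, totals without the members, thinning, members kept in the clustering, minimums of 300 UMIs or none, and, added after seeing the data, the doublet-rich cluster or the dividing cells counted as goblet and the enterocyte level taken off. The 2 other minimums could not change that count, since the members have far more UMIs in goblet cells than either. Members higher in crypt than in villus goblet cells in every library stayed 3 (Agr2, Spink4 and Retnlb) under the alternatives run, except that they were 2 (Agr2 and Retnlb) when the 8 members alone were left out of the total. Of 224 values of the 16 single-member ratios in goblet cells, 117 lay within the counting interval and 107 outside it. Small ratios changed sign under some alternatives: from AOS 0 to B + A 0, Fcgbp and Spink4 kept theirs in 11 of 14 and Zg16 in 13, and from B + A 0 to B + A 10, Zg16 kept its sign in 10 and Muc2 and Clca1 in 13. Agr2 and Spink4 from B + A 0 to B + A 10 ranged from -0.42 to -0.34 and from 0.27 to 0.34. The crypt goblet share of UMIs rose to between 24.6% and 27.5% at resolution 0.4 or unjoined, where no middle cluster was found. B + A 10 has the fewest UMIs per cell, and with 1 library per group no spread between mice is known.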

Other observations

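St6galnac1, which adds sialic acid to mucin sugars, had 76 UMIs in goblet cells, below the minimum of 100, and was picked after its values were seen. Of these UMIs, 73 were from AOS 0, 2 from B + A 0 and 1 from the library with AOS, so its level per 10000 was 0.17, 0.0054 and 0.0032.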
